A study of Mus musculus with 7 samples.

Results

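The cytochrome P450 genes described here were the 82 protein-coding genes, of 22367 in the annotation of the mm9 mouse genome, whose symbols follow the pattern Cyp, family number, subfamily letter and gene number. The symbols of 90 genes fitted, and the selection set aside 8 of them, the vitamin D enzymes Cyp24a1, Cyp27a1, Cyp27b1 and Cyp2r1 together with Cyp3a11, Cyp3a13, Cyp3a25 and Cyp2b10. Neighbouring genes no more than 100 kb apart were grouped, which gave 38 loci, 22 with a single gene and 16 with several. Around each gene the deposited binding sites of the vitamin D receptor (VDR) were counted, and a site was assigned to a gene when its centre lay in the gene or within 50 kb of either end.

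VDR binding had been mapped by chromatin immunoprecipitation and sequencing (ChIP-seq) in epithelial cells freed with EDTA from the duodenum and jejunum. The donors were wild-type mice on a standard chow diet, 8 weeks of age, and no allele or strain beyond wild type is named. One group received vehicle and the other the active vitamin D hormone, 1,25(OH)2D3 (10 ng per g body weight), for 1 h, and each group had 3 libraries. A single input library, labelled with the hormone dose, was the shared reference for peak calling and has no values here. Whether a library stands for a separate mouse is not in the labels, so p-values here measure only the spread between libraries, which may be technical.

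P450 enzymes are haem proteins that insert an oxygen atom into lipophilic substrates, using electrons passed on by cytochrome P450 reductase in the endoplasmic reticulum or by ferredoxin in mitochondria. Families 1 to 3 oxidise mainly drugs, dietary compounds and other foreign chemicals, and those of the small intestine act on swallowed compounds before they reach the liver. Family 4, Cyp2j and Cyp2u1 hydroxylate or epoxidise fatty acids and eicosanoids, and other families make bile acids and steroid hormones or break down retinoic acid. Hormone-bound VDR acts as a heterodimer with the retinoid X receptor, and its classical element (DR3) is a direct repeat of a hexamer half-site with a 3 bp spacer. By symbol, the 82 genes fell into 44 for foreign compounds, 23 for fatty acids and eicosanoids, 5 for bile acids and sterols, 6 for steroid hormones, 3 for retinoic acid and 1 unclassified gene, Cyp20a1.

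Peaks overlapping by at least 1 bp in any of the 6 libraries were merged into regions. A region was called hormone-only when all 3 hormone libraries and no vehicle library had a peak in it. The files give no tag count per peak, so rank was read from the order of each list and averaged over the libraries with a peak (100 for the first peak). What HOMER value that order follows is not stated. The windows below, the region's centre with 100 bases on either side read from the NCBI build 37 (mm9) genome, are those of the 5 hormone-only regions highest in the lists. Capitals mark the closest DR3 match where it had at most 2 mismatches, on either strand.
Cyp4f14, 0.925 kb inside the gene from its start, chr17:33052998-33053198, plus strand: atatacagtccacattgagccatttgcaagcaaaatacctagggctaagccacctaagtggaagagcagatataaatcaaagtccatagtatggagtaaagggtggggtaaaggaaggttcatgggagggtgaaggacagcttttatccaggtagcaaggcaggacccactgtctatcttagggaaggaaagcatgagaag
Cyp4f40, 0.673 kb before its start, chr17:32795582-32795782, plus strand: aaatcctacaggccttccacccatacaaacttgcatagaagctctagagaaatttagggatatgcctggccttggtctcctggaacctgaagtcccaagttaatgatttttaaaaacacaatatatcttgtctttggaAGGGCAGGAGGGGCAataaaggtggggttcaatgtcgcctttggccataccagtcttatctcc
Near Cyp2w1, at the start of Adap1, chr5:139801661-139801861, plus strand: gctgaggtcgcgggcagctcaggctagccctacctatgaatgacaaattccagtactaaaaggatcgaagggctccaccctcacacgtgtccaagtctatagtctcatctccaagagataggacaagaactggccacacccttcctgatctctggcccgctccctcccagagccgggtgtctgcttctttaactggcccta
Cyp4v3, intron, 3.724 kb after its start, chr8:46414746-46414946, plus strand: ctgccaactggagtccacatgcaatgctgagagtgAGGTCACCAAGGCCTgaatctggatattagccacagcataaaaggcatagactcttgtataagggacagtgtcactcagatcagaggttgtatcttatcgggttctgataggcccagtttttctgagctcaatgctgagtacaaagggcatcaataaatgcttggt
Cyp17a1, beyond its 3′ end, 13.89 kb from its start, chr19:46733472-46733672, plus strand: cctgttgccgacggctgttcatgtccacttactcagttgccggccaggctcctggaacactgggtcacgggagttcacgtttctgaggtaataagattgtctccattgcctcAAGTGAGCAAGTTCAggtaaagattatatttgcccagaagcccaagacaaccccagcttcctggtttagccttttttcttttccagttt
These 5 windows stood at mean list positions of 91.3, 85.6, 85.4, 84.7 and 84.5 in the order shown. The window beyond Cyp17a1 held a match with 1 mismatch, those of Cyp4f40 and Cyp4v3 had 2 mismatches, and those of Cyp4f14 and Adap1 held no match that close.

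The next 4 windows are the highest of those bound in all 6 libraries, vehicle included, leaving out a window at the start of Cpn1 that covers untranslated bases.
Cyp2j5, 1.102 kb before its start, chr4:96331847-96332047, plus strand: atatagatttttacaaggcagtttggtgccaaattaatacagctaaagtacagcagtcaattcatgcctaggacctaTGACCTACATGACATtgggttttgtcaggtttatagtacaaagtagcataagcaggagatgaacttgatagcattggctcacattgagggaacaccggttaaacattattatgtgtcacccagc
Cyp2c66, 5.328 kb before its start, chr19:39182960-39183160, plus strand: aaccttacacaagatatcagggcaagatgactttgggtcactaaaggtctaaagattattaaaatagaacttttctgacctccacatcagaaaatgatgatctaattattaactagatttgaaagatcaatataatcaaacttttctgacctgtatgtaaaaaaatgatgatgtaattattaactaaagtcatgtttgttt
Cyp2c55, 1.702 kb before its start, chr19:39079707-39079907, plus strand: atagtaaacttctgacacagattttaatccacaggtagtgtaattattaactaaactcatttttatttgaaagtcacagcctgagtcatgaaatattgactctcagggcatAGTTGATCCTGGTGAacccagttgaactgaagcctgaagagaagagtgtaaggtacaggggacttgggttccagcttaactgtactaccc
Cyp17a1, 0.255 kb before its start, chr19:46747619-46747819, plus strand: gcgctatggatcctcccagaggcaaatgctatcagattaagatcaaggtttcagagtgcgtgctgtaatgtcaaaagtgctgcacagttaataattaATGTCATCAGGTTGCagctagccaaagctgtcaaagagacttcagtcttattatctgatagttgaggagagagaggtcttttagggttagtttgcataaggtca
They stood higher, at 98.6, 97.4, 96.3 and 94.4. The Cyp2j5 and Cyp2c55 windows each held a match with 1 mismatch, the Cyp17a1 window had 2 mismatches and the Cyp2c66 window held none within 2.

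Library depth ran from 15991198 to 68560701 tags, with replicate 3 the deep library of each group, and 2.58 to 8.1% of tags lay in peaks with vehicle against 11.86 to 18.96% with hormone. The lists held 8755 to 48424 peaks with vehicle and 25509 to 41721 with hormone, and list length differed between libraries of one group as well as between groups. The part of list length in the counts was not tested, and scaled values are given beside many of the results. The peaks carry no expression values, so the labelled epithelium could not be checked by marker expression. Of the 6 enterocyte marker genes listed, 6 had a region in at least 2 hormone libraries, as had 2 of 4 hepatocyte and 2 of 3 immune marker genes. Over all protein-coding genes the share was 70.2%, and these counts name no cell type.

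VDR regions lay near most P450 genes, at about the rate of other genes. A region present in at least 2 of 3 hormone libraries lay near 60 of the 82 genes (73.2%), where the share over all protein-coding genes was 70.2%. For regions in at least 2 of 3 vehicle libraries the numbers were 44 genes (53.7%) and a background of 49.0%. A hormone-only region lay near 33 genes (40.2%, background 33.2%), and a region found in all 6 libraries near 23 genes (28.0%, background 29.1%). None of the 82 had a region confined to the 3 vehicle libraries, which 0.259% of all genes had. Without vehicle replicate 1 the genes with a region in all remaining libraries numbered 35 (42.7%, background 38.8%). With 1 vehicle library left out, a vehicle region had to be in both remaining ones. Genes with such a region then numbered 35 without vehicle replicate 1 (42.7%, background 43.2%) and 28 without replicate 2 (34.1%, background 35.8%). Both shares were below the background, while without replicate 3 the 34 genes (41.5%) were above it (34.6%). The P450 genes had a median length of 20.9 kb against 15.4 kb for all protein-coding genes, and their share was not adjusted for length.

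**Figure D1:**
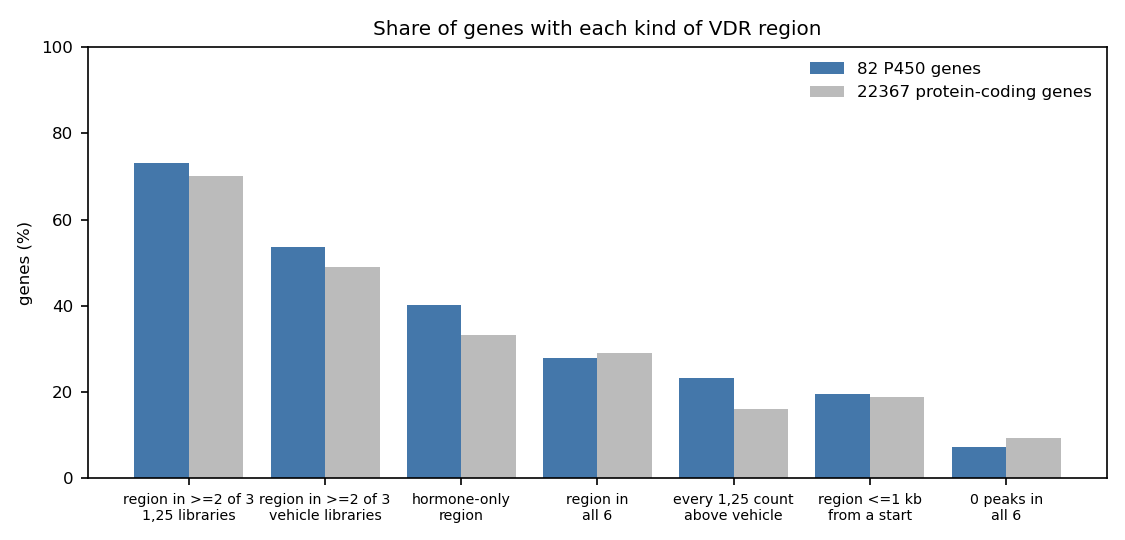
Percentage of genes with each kind of VDR region or peak pattern, for the 82 P450 genes (blue bars) and all 22367 protein-coding genes (grey bars). The shares are 73.2% against 70.2% for a region in at least 2 of 3 hormone libraries and 28.0% against 29.1% for a region in all 6, and lie further apart for hormone-only regions (40.2% against 33.2%) and for every hormone count above every vehicle count (23.2% against 16.0%, but 35.4% against 42.3% without vehicle replicate 3).

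Each library had on average a few peaks per P450 gene. Averaged over the 82 genes, vehicle replicates 1, 2 and 3 had 1.04, 1.67 and 2.49 peaks, and the hormone replicates 2.71, 2.92 and 3.66. All hormone values were above all vehicle values, within the shallow libraries (replicates 1 and 2) and between the deep pair alike. The group means were 1.73 ± 0.73 (SD, n = 3) and 3.09 ± 0.50 (SD, n = 3), a difference of 1.36 peaks per gene, beside 1.26 over all protein-coding genes. Per 10000 peaks of the library the difference was 0.026, beside 0.080 over all protein-coding genes. With every list shortened to the length of the shortest it was -0.020, beside 0.046. Both scalings also took the median difference over all protein-coding genes from 0.67 to 0. Neighbouring genes share peaks, so the 82 genes are not independent observations.

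A total of 60 genes (73.2%, background 63.6%) had a higher mean with hormone and 11 (13.4%, background 20.4%) a lower one. This split depended on scaling. Per 10000 peaks, 37 genes were higher (45.1%, background 49.0%) and 39 lower (47.6%, background 41.6%). With lists of equal length, 14 were higher (17.1%, background 24.4%) and 28 lower (34.1%, background 26.8%). Without vehicle replicate 3, 67 genes were higher (81.7%, background 78.6%) and 2 lower, Cyp20a1 and Cyp2d26 (2.44%, background 1.94%). In 19 genes (23.2%, background 16.0%) every hormone library had more peaks than every vehicle library, and in none was the reverse true (background 0.0447%). Without vehicle replicate 3 that count was 29 (35.4%), below the background of 42.3%. Each of the 19 had the smallest p that an exact two-sided permutation of 3 against 3 can give, 0.1 (background 16.1%), and a Benjamini-Hochberg adjusted p of 0.623 over all 22367 genes. No gene passed an adjusted p of 0.05 (background 0%), nor could an unadjusted p fall below 0.05 in this design. Of the 19, 16 remained higher per 10000 peaks and Cyp2c66, Cyp2w1 and Cyp4f18 turned lower, and with equal lists 8 were higher and 6 lower.

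**Figure D2:**
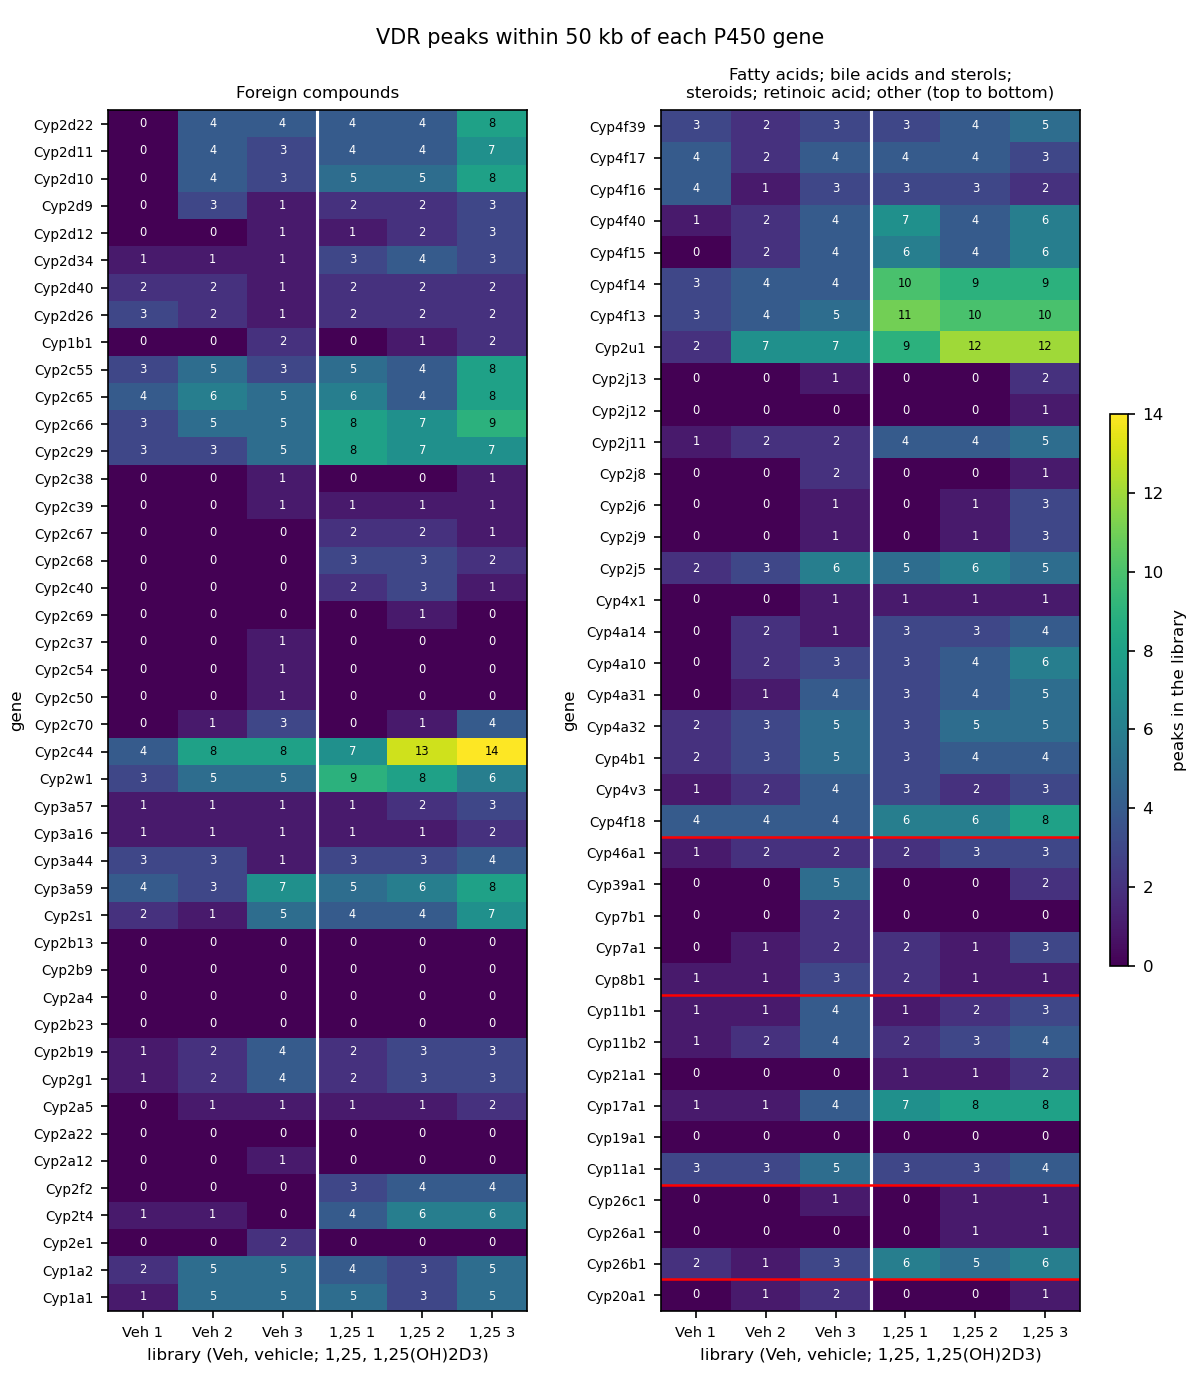
Number of VDR peaks within 50 kb of each of the 82 P450 genes (one line per gene, neighbours together) in each of the 3 vehicle (Veh) and 3 hormone (1,25) libraries, unscaled, with red lines between functional groups. Cyp4f13 goes from 3, 4 and 5 peaks with vehicle to 11, 10 and 10 with hormone, while 6 genes have 0 in every library.

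Of the 82 genes, the fatty acid and eicosanoid gene Cyp4f13 had the largest unscaled difference in peak number, while per 10000 peaks Cyp17a1 did (1.55 against 0.95). A hormone-library region lay near 20 of the 23 genes of this group (87.0%, background 70.2%). A hormone-only region lay near 11 (47.8%, background 33.2%) and a region of all 6 libraries near 8 (34.8%, background 29.1%). The mean was higher with hormone in 21 and lower in 1, Cyp2j8 (background 63.6% and 20.4%). These numbers became 14 and 9 per 10000 peaks (background 49.0% and 41.6%) and 5 and 8 with equal lists (background 24.4% and 26.8%). Cyp4f13, a member of the leukotriene and fatty acid omega-hydroxylase subfamily, had 3, 4 and 5 peaks in vehicle replicates 1 to 3 and 11, 10 and 10 with hormone. Its neighbour Cyp4f14, which inactivates leukotriene B4 by omega-hydroxylation, had 3, 4 and 4 peaks with vehicle and 10, 9 and 9 with hormone. The groups did not overlap at either gene, with differences of 6.33 and 5.67 peaks (exact permutation p = 0.1). Both stayed higher with hormone per 10000 peaks, by 0.95 and 0.70, and with equal lists, by 3.67 at each.

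The shared Cyp4f14 and Cyp4f13 locus (chr17:33042016-33084347) held 16 distinct regions, 10 of them in at least 2 hormone libraries and 4 hormone-only, with none in all 6. Besides the window printed for Cyp4f14, a hormone-only region lay 0.269 kb before the start of Cyp4f13. The other two were nearer to the starts of Zfp472 and Zfp952, 2 zinc finger genes upstream of Cyp4f13. A region at an internal annotated start of Cyp4f13 was in 2 vehicle and 3 hormone libraries. It lay near the 3′ end of that gene, closer to the start of Cyp4f14 than to the outermost start of Cyp4f13. Further along, Cyp4f40 and Cyp4f15 had no region in at least 2 vehicle libraries. Cyp4f40 had 1, 2 and 4 peaks with vehicle and 7, 4 and 6 with hormone, so the groups met at 4. The difference of 3.33 was 0.73 per 10000 peaks and 0 with equal lists. The start regions of Cyp4f39 and Cyp4f16 were already seen with vehicle. Cyp4f39 had 3, 2 and 3 vehicle and 3, 4 and 5 hormone peaks, overlapping, and its difference of 1.33 was -0.57 per 10000 peaks and -0.67 with equal lists. Cyp4f16 had 4, 1 and 3 vehicle and 3, 3 and 2 hormone peaks, also overlapping. Its difference of 0 was -1.07 per 10000 peaks and -0.67 with equal lists.

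Cyp2u1, which hydroxylates long-chain fatty acids, had 2, 7 and 7 peaks with vehicle and 9, 12 and 12 with hormone. Every hormone library was above every vehicle library, by 5.67 peaks on average (exact permutation p = 0.1), and the sign held per 10000 peaks (0.64) and with equal lists (1.33). Its 2 hormone-only regions were both nearer to the start of Hadh, a gene of mitochondrial fatty acid oxidation. At the Cyp2j genes, arachidonic acid epoxygenases, the locus from Cyp2j11 to Cyp2j5 had 3, 5 and 10 vehicle peaks and 9, 11 and 13 hormone peaks, where vehicle replicate 3 overlapped the hormone range, and the difference of 5 was 0.47 per 10000 peaks and -1.33 with equal lists. No region there was hormone-only, and the one printed for Cyp2j5 was the highest in the lists of any near the 82 genes that was in all 6 libraries. The Cyp4a and Cyp4b1 cluster encodes peroxisome-proliferator-responsive omega-hydroxylases and an enzyme of the lung and other extrahepatic tissues. Its counts were 2, 5 and 7 with vehicle and 6, 8 and 10 with hormone. The difference of 3.33 was 0.098 per 10000 peaks and -1 with equal lists. Cyp4b1 alone had 2, 3 and 5 vehicle and 3, 4 and 4 hormone peaks, and its difference of 0.33 was -0.63 per 10000 peaks and -1 with equal lists. Of its start regions, 1 was in 2 vehicle and 3 hormone libraries. The other, at an annotated start inside the gene, was in 2 hormone libraries.

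**Figure D3:**
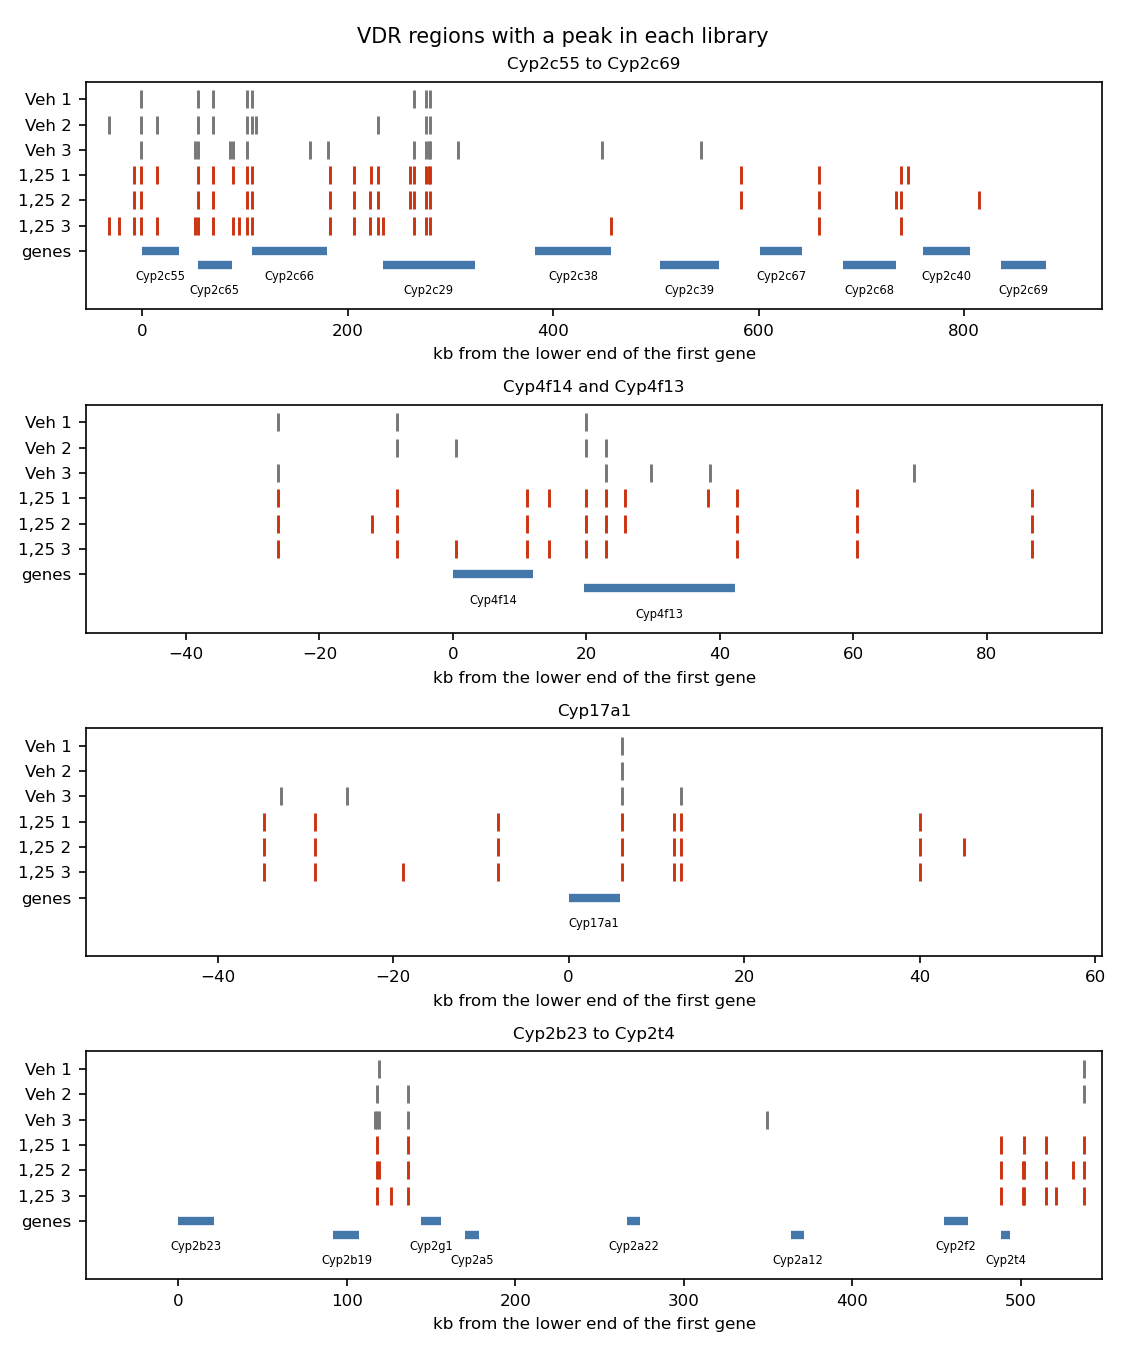
Regions with a peak in each library (ticks; grey for vehicle, red for hormone, 1,25) around 4 loci, with genes as blue bars and distance in kb from the lower end of the first gene. The Cyp4f14 and Cyp4f13 panel shows 4 hormone-only regions and Cyp17a1 shows 5, while the last 4 genes of the Cyp2c locus have no vehicle tick.

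Among the foreign compound genes, the longest locus and the gene with the most peaks both belonged to the Cyp2c subfamily. A hormone-library region lay near 31 of the 44 genes (70.5%, background 70.2%), a hormone-only region near 17 (38.6%, background 33.2%) and a region of all 6 libraries near 11 (25.0%, background 29.1%). Unscaled, 31 had a higher and 5 a lower mean with hormone (background 63.6% and 20.4%). The numbers were 17 and 22 per 10000 peaks (background 49.0% and 41.6%) and 4 and 19 with equal lists (background 24.4% and 26.8%). The largest locus, 10 genes from Cyp2c55 to Cyp2c69 over 879.8 kb, had 8, 11 and 15 peaks with vehicle and 21, 19 and 23 with hormone. All hormone libraries were above all vehicle libraries, but the difference of 9.67 was 0.12 per 10000 peaks and -2.67 with equal lists. All 39 of its regions were nearest to the start of a member gene. Of these, 18 were in at least 2 hormone libraries, 5 were hormone-only and 5 were in all 6.

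Binding was uneven along the cluster. Cyp2c66, at its left part, had 3, 5 and 5 vehicle and 8, 7 and 9 hormone peaks, a difference of 3.67 (exact permutation p = 0.1) that turned to -0.074 per 10000 peaks and -1 with equal lists. Cyp2c29, a drug-metabolising enzyme, had 3, 3 and 5 vehicle and 8, 7 and 7 hormone peaks, and its difference of 3.67 became 0.21 per 10000 peaks and -1.67 with equal lists. Cyp2c65 had 4, 6 and 5 vehicle and 6, 4 and 8 hormone peaks, with overlapping groups, and its difference of 1 was -1.35 per 10000 peaks and -1 with equal lists. At the right end the counts of vehicle peaks were 0 in every library for Cyp2c67, Cyp2c68, Cyp2c40 and Cyp2c69, genes picked out after their values were seen. The hormone libraries had 2, 2 and 1 peaks near Cyp2c67, 3, 3 and 2 near Cyp2c68, 2, 3 and 1 near Cyp2c40, and 0, 1 and 0 near Cyp2c69. In these 4 genes and 50 kb on either side, 47.6 to 57.4% of the 32-base words recurred elsewhere on the chromosome. For Cyp2c55, Cyp2c65, Cyp2c66 and Cyp2c29 the share was 12.4 to 30.2%. Cyp2c38 and Cyp2c39, between them, had shares of 34.2% and 29.1% and also few peaks. Cyp2c38 had 0, 0 and 1 vehicle and 0, 0 and 1 hormone peaks. For Cyp2c39 the counts were 0, 0 and 1 with vehicle and 1, 1 and 1 with hormone. The part of repeated sequence in these counts was not tested. With equal lists Cyp2c67, Cyp2c68, Cyp2c40 and Cyp2c69 had no peak left in any library, and neither had Cyp2c38 and Cyp2c39.

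The starts of Cyp2c65 and Cyp2c66 were both bound, and their windows, shown for their likeness as neighbouring copies and picked after they were seen, held the same closest DR3 match at 2 mismatches on the minus strand.
Cyp2c65, 0.223 kb before its start, chr19:39135182-39135382, plus strand: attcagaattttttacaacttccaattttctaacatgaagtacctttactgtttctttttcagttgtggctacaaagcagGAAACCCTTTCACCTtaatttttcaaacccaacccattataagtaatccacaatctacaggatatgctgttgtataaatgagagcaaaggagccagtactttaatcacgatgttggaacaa
Cyp2c66, 0.154 kb before its start, chr19:39188134-39188334, plus strand: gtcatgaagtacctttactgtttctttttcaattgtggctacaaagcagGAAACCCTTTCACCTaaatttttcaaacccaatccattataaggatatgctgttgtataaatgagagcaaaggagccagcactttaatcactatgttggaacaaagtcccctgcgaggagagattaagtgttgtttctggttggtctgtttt
Aligned without gaps at a single offset, 105 of 170 bases (61.8%) were identical. A short stretch of the Cyp2c65 window has no counterpart in the Cyp2c66 window and puts the bases on one side of it out of register. The share therefore understates the likeness of the windows. The Cyp2c65 region was in all 6 libraries at a mean list position of 90.03, and the Cyp2c66 region was in 2 vehicle and 3 hormone libraries at 55.5.

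Cyp2c44, an arachidonic acid epoxygenase on another stretch of chromosome 19, had the most peaks of any of the 82 genes, 4, 8 and 8 with vehicle and 7, 13 and 14 with hormone. The groups overlapped, and the difference of 4.67 was -0.41 per 10000 peaks and 1.67 with equal lists. Of its 3 regions in all 6 libraries, 1 lay in its own intron and the others were nearer to Cpn1 and Erlin1. The second Cyp2c group, Cyp2c37, Cyp2c54, Cyp2c50 and Cyp2c70, had only 0, 1 and 4 peaks in each treatment. Cyp2c70, known for making muricholic acids, had 0, 1 and 3 vehicle and 0, 1 and 4 hormone peaks, and a region at its start was in 1 vehicle and 2 hormone libraries.

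Cyp2w1, an enzyme of fetal gut and colorectal tumours, had 3, 5 and 5 vehicle and 9, 8 and 6 hormone peaks. The groups did not overlap, and the difference of 3.33 (exact permutation p = 0.1) was -0.073 per 10000 peaks and 1.33 with equal lists. Its hormone-only region, printed above, was at the start of Adap1. Cyp2t4 had 1, 1 and 0 vehicle and 4, 6 and 6 hormone peaks, a difference of 4.67 (exact permutation p = 0.1) that stayed positive per 10000 peaks (1.06) and with equal lists (1.67). Cyp2f2, the naphthalene-oxidising enzyme of airway club cells and named after its values were seen, shares those regions and had no vehicle peak and 3, 4 and 4 hormone peaks. The 3 hormone-only regions of this pair lay 0.265 kb before the start of Cyp2t4 and at the starts of Egln2 and Mia1.

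The Cyp2d genes, a drug-metabolising subfamily, had 1, 6 and 5 vehicle and 8, 9 and 13 hormone peaks over the 6-gene locus from Cyp2d22 to Cyp2d34. All hormone values were above all vehicle values in that locus, and the difference of 6 was 1.00 per 10000 peaks and -1 with equal lists. A hormone-only region lay at the start of Cyp2d22, whose own counts of 0, 4 and 4 with vehicle and 4, 4 and 8 with hormone met at 4. The Cyp2d22 difference of 2.67 was 1.33 without vehicle replicate 1 or without hormone replicate 3. It was 0.43 per 10000 peaks and -0.67 with equal lists. Cyp2d26 had 3, 2 and 1 vehicle and 2, 2 and 2 hormone peaks and a start region in 2 vehicle and 3 hormone libraries. Its difference of 0 was -1.02 per 10000 peaks and -0.67 with equal lists. Cyp2s1, an epithelial enzyme, had 2, 1 and 5 vehicle and 4, 4 and 7 hormone peaks, with a start region in 2 vehicle and 3 hormone libraries. These groups overlapped, and the difference of 2.33 was 0.19 per 10000 peaks and -0.33 with equal lists. Cyp3a59 had 4, 3 and 7 vehicle and 5, 6 and 8 hormone peaks, overlapping, and 3 regions in all 6 libraries, and its difference of 1.67 was -0.73 per 10000 peaks and -0.67 with equal lists. Cyp1a1 and Cyp1a2, the dioxin-inducible aryl hydrocarbon hydroxylases, together had 2, 5 and 5 vehicle and 5, 3 and 5 hormone peaks. Their groups overlapped, and the difference of 0.33 was -0.84 per 10000 peaks and -1.33 with equal lists.

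Of the steroid hormone genes, 5 of 6 had a region in at least 2 hormone libraries (background 70.2%), and 2, Cyp17a1 and Cyp21a1, a hormone-only region (background 33.2%). Cyp17a1 encodes the hydroxylase and lyase of androgen and glucocorticoid synthesis and had 1, 1 and 4 vehicle and 7, 8 and 8 hormone peaks. The groups did not overlap, and the difference of 5.67 (exact permutation p = 0.1) stayed positive per 10000 peaks (1.55) and with equal lists (2.67). Its surroundings (chr19:46741655-46747464 with 50 kb either side) held 5 hormone-only regions, the most of any of the 82 genes. Of these, 3 were nearest to the start of Cyp17a1, at distances of 34.67, 13.89 and -6.213 kb along the gene's direction, and the others were nearer to D19Wsu162e and As3mt. The one 34.67 kb away, inside an intron of D19Wsu162e, held an exact DR3 but stood low in the lists, at 17.8. The region 0.255 kb before the start was present with and without hormone.

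Cyp11a1, which cleaves the cholesterol side chain to begin steroid synthesis, had 3, 3 and 5 vehicle and 3, 3 and 4 hormone peaks, overlapping. Its difference of -0.33 was -1.12 per 10000 peaks and 0 with equal lists. Its 3 regions in all 6 libraries were 45.7, 41.1 and 16.6 kb upstream, the first pair nearer to Sema7a. Cyp11b2, aldosterone synthase, had 1, 2 and 4 vehicle and 2, 3 and 4 hormone peaks, with overlapping groups. Its difference of 0.67 was -0.19 per 10000 peaks and 0.67 with equal lists. Cyp21a1, the steroid hydroxylase missing in congenital adrenal hyperplasia, had no vehicle peak and 1, 1 and 2 hormone peaks. Its hormone-only region was at the start of Skiv2l. The difference of 1.33 was 0.40 per 10000 peaks and 0 with equal lists, where no peak was left. Cyp19a1, aromatase, had no peak in any library.

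Few peaks lay near the bile acid and sterol genes. A hormone-library region lay near 3 of 5 genes (background 70.2%) and a hormone-only region near 2, Cyp46a1 and Cyp7a1 (background 33.2%). In none of the 5 was every hormone library above every vehicle library (background 16.0%). Cyp7a1, the rate-limiting enzyme of bile acid synthesis, had 0, 1 and 2 vehicle and 2, 1 and 3 hormone peaks. Its hormone-only region, 18.2 kb upstream (chr4:6220826-6221166), held a DR3 with 1 mismatch. Cyp46a1, the cholesterol hydroxylase of neurons, had 1, 2 and 2 vehicle and 2, 3 and 3 hormone peaks, a difference of 1 that was -0.14 per 10000 peaks and -0.67 with equal lists. Cyp8b1, which is needed for cholic acid, had 1, 1 and 3 vehicle and 2, 1 and 1 hormone peaks.

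The largest differences in the direction of vehicle were small and rested on vehicle replicate 3. Cyp39a1, an oxysterol hydroxylase, had 0, 0 and 5 vehicle and 0, 0 and 2 hormone peaks. Both Cyp7b1, another oxysterol hydroxylase, and Cyp2e1, which oxidises ethanol, had 0, 0 and 2 vehicle peaks and none with hormone. Cyp20a1, of unknown substrate, had 0, 1 and 2 vehicle and 0, 0 and 1 hormone peaks. Except at Cyp20a1, the mean with vehicle was above that with hormone only when vehicle replicate 3 was counted, Cyp8b1 included.

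Of the retinoic acid hydroxylases, Cyp26b1 had 2, 1 and 3 vehicle and 6, 5 and 6 hormone peaks. These did not overlap, and the difference of 3.67 (exact permutation p = 0.1) kept its sign per 10000 peaks (0.62) and with equal lists (0.67). It had 2 hormone-only regions, 1 of them in its own intron. Cyp26a1 and Cyp26c1 lie side by side and had 0, 0 and 0 against 0, 1 and 1 peaks, and 0, 0 and 1 against 0, 1 and 1. Neither had a region in at least 2 hormone libraries.

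**Figure D4:**
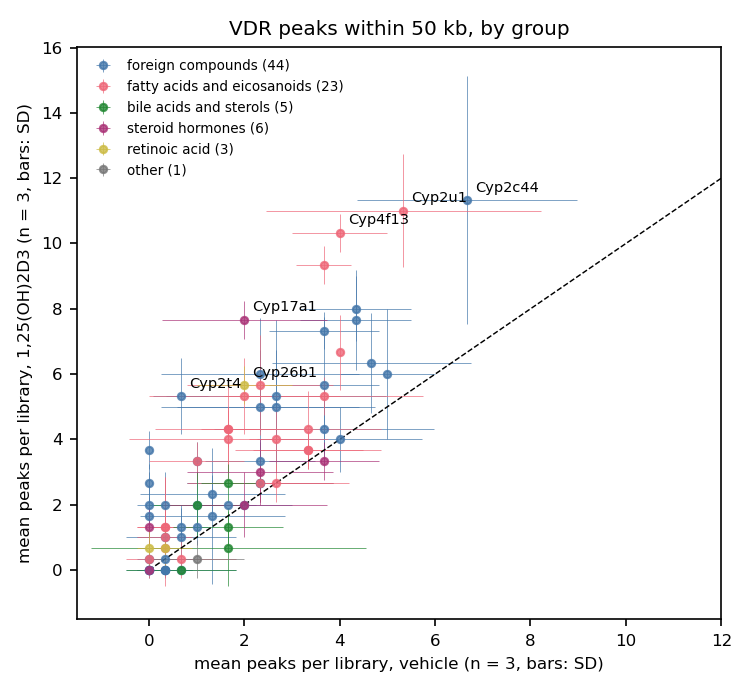
Mean number of peaks within 50 kb per library with vehicle (x axis) and with hormone (y axis), n = 3 libraries each, unscaled, with SD bars, for each of the 82 P450 genes coloured by functional group. Most points lie above the dashed line of equality, Cyp17a1, Cyp4f13 and Cyp2u1 far above it. Per 10000 peaks, however, 39 of the 82 genes are lower with hormone (47.6%, background 41.6%).

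No peak was found near 6 genes (7.32%, background 9.45%). They were Cyp2b13, Cyp2b9, Cyp2a4, Cyp2b23 and Cyp2a22, foreign compound genes of the Cyp2a and Cyp2b cluster on chromosome 7, and Cyp19a1. In these genes and 50 kb on either side, a median of 47.4% of the 32-base words recurred on their chromosome (range 8.64 to 53.8%). The median was 16.99% for the genes with a peak and 6.98% for all protein-coding genes. The part of repeated sequence in these zeros was not tested, and Cyp19a1 had the lowest share of the 6.

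At their starts, 16 of the 82 genes (19.5%, background 18.8%) had a region within 1 kb in at least 2 hormone libraries, and 10 (12.2%, background 6.38%) in at least 2 vehicle libraries. A hormone-only start region, whose share over all genes was not computed, was found in 5: Cyp4f14, Cyp4f13, Cyp4f40, Cyp2d22 and Cyp2t4. Of these, Cyp4f13 also had a start region in 2 vehicle libraries, at the internal start described above. The distinct regions near the 82 genes numbered 337, and 160 of them were in a single library, 70 in vehicle replicate 3 and 41 in hormone replicate 3. Over the genome, single-library regions made up a larger part, 54468 of 87029. Of the 158 regions in at least 2 hormone libraries, 105 were nearest to the start of one of the 82 genes. By position, 34 of the 158 were within 1 kb of a start, 4 in exons, 49 in introns and 71 between genes. Their median list position, 57.0, was close to the 57.5 of all such regions in the genome. It was 47.4 for the 37 hormone-only regions and 82.1 for the 27 in all 6 libraries.

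DR3 matches were about as frequent near P450 genes as elsewhere. A match with at most 1 mismatch, on either strand within 100 bp of the centre, was found in 28 of the 158 regions, 17.7% (95% Wilson interval 12.6 to 24.4). Over all 28190 regions in at least 2 hormone libraries the share was 18.7% (18.2 to 19.1), and windows 5 kb to the right had 5.06% and 4.34%. In the hormone-only regions it was 21.6% (11.4 to 37.2, 8 of 37) near the 82 genes and 20.5% over the genome. In the regions of all 6 libraries it was 18.5% (8.18 to 36.7, 5 of 27) and 28.1%. With up to 2 mismatches, the setting of the capitals in the printed windows, 66.5% of the 158 regions and 34.8% of the windows 5 kb away held a match. These intervals cover counting error only.

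VDR regions also lay near genes that work with the P450 enzymes. Of a list of 38 electron donors, haem synthesis enzymes, regulating receptors, epoxide hydrolases and the 8 P450 genes set aside, 36 had a region in at least 2 hormone libraries (background 70.2%), 21 a hormone-only region (background 33.2%) and 21 a region in all 6 (background 29.1%). The mean was higher with hormone in 34 and lower in 4, Uros, Ahr, Arnt and Cyp2r1 (background 63.6% and 20.4%). The numbers were 16 and 22 per 10000 peaks (background 49.0% and 41.6%) and 14 and 16 with equal lists (background 24.4% and 26.8%). None passed an adjusted p of 0.05. The median unscaled difference was 2.17 peaks, beside 0.83 over the 82 genes and 0.67 over all protein-coding genes, but it was -0.064 per 10000 peaks and 0 with equal lists. Por, the reductase that supplies electrons to the microsomal enzymes, had 7, 7 and 15 vehicle and 12, 18 and 21 hormone peaks, a difference of 7.33 that was -0.045 per 10000 peaks and 2.00 with equal lists. Ppara, the receptor that controls Cyp4a genes, had 4, 8 and 8 against 14, 17 and 18, higher with hormone under both scalings as well. Nr1i2, the pregnane X receptor, had 4, 6 and 9 against 7, 9 and 11, lower with hormone under both scalings. Of these, Ppara alone had groups that did not overlap. These 3 were named for their role after the values were seen.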

How the data were processed

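The files hold the VDR peaks of 6 ChIP-seq libraries, 3 per treatment. Reads were aligned to mm9 with Bowtie and peaks called with HOMER, per the submitters' processing notes, with versions not given in the sources used here. The calls were made per library against the same input, per the file headers, with a false discovery rate of 0.001, a Poisson p of 0.0001, a clonal limit of 2 and 4-fold enrichment over both input and the local 10 kb. The values used are the deposited peak positions in bases; the authors' score column is 1 for every peak and was not used as a rank.

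Autosomal, X and Y peaks were merged into regions and counted with Python 3.11.15, numpy 2.4.6, pandas 2.3.3 and scipy 1.17.1. Genes came from GENCODE M1 (Ensembl 65) on NCBI build 37. Groups followed the treatment in the titles. Each gene's peak counts were compared by exact two-sided permutation of the labels (20 arrangements) with Benjamini-Hochberg adjustment over all protein-coding genes. The counting was tested on simulated data: of 417 regions planted near 200 of 22367 genes, 98.1% were recovered. Planted peaks had the same position and width in every hormone library. The share therefore checks the code and does not measure the recovery of real peaks. Deviations of same-numbered libraries were weakly correlated over genes (0.16, 0.12 and 0.22, against -0.17 to 0.024 for other pairs). An alternative, the replicate block, took the numbers as pairs, while the main permutation did not. Whether the numbers stand for a pairing is not in the labels, and replicate 3 was deep in both groups.

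Named were the 3 genes with the most hormone peaks in each functional group, genes with a region within 1 kb of a start, up to 5 with the largest decrease and those without peaks. Members and lists were chosen with earlier results of these data known. Repeated 32-base words were counted per chromosome in steps of 10 bases, over each gene and 50 kb on either side. Alternatives were other windows, list lengths, overlaps, scalings, DR3 settings and leaving out each library. The input library was not analysed here.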

Additional observations from a re-analysis of the deposited data

How the results depend on the processing

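Adjusted p-values were computed only for the main counts, the replicate block and the peaks per 10000 peaks, and none of the 82 genes passed 0.05 there. The block takes the replicate numbers as pairs, and in it 28 genes were higher with hormone in each pair (34.1%, against 33.2% of all genes). The smallest p its sign flip test can give is 0.25, and that of the exact permutation 0.1, so 0 passing genes was fixed by the design. The block was run for these counts only. Shares over all genes at the same setting are in parentheses. With a 10 kb window, 28 genes had a vehicle region (26.6%), 19 a hormone-only region (16.4%), 15 a region in all 6 libraries (13.6%) and 10 non-overlapping groups (9.82%), and the mean difference was 0.557 peaks (0.502 over all genes); with 100 kb it was 2.26 (2.17). With the upper 50% of each list these were 16 hormone-only (19.1%), 13 in all 6 (21.6%) and 9 non-overlapping (8.02%). With equal lists 34 genes had a hormone region (42.1%), 10 a hormone-only region (8.07%), 12 one in all 6 (20.7%) and 6 non-overlapping groups (4.03%), and the mean difference reversed to -0.020 (0.046). Of the named genes 9 changed sign there, Cyp2c29 (-1.67) and Cyp2c66 (-1) from groups that had not overlapped and 7 from overlapping ones. Requiring all 3 vehicle libraries left 23 genes (30.5%), and per 10000 peaks the mean difference was 0.026 (0.080). Leaving out each library gave 28 to 44 genes with a vehicle region (34.6 to 49.0%), 23 to 35 in all 6 (29.2 to 38.8%) and 19 to 29 non-overlapping (16.4 to 42.3%). It gave 55 to 60 with a hormone region (63.0 to 70.2%), 33 to 38 hormone-only (35.2 to 46.8%) and mean differences of 1.01 to 1.74 (0.743 to 2.01). Without hormone replicate 1 the hormone-only share of 45.1% was below the 46.8% of all genes. DR3 shares were 3.16% with 0 mismatches and 66.5% with up to 2. Fewer peaks, genes or libraries enter several of these by construction; the cause of other shifts was not tested. Depth and list length limit every absence of a peak, which shows only that none was called.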
